A study of Mus musculus with 22 samples.

Results

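The miR-30 family was followed through 5 mature mouse microRNAs (miRNAs), mmu-miR-30a-5p, mmu-miR-30b-5p, mmu-miR-30c-5p, mmu-miR-30d-5p and mmu-miR-30e-5p, the 5p arms of the hairpins miR-30a to miR-30e. They were taken by their names from the 1881 mouse miRNAs of an Agilent array that was hybridised with Cy3-labelled total RNA. The 22 arrays came from male mice aged 8 weeks that had received X-rays of 10 Gy at 1.0 Gy per minute or no dose (0 Gy). Small intestine and feces gave 4 arrays at each dose, and serum from heart blood gave 2 arrays at 0 Gy and 4 at 10 Gy. Genotype and the interval from irradiation to collection are not given in the labels. Whether each sample is a separate animal is not stated either. All p-values therefore rest on the spread between the samples at hand, and that spread may be technical. The study compared miRNAs of irradiated and unirradiated mice in tissue and in the 2 extracellular materials.

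A mature miRNA guides an Argonaute protein to messenger RNAs that pair with its seed, bases 2 to 8 from its 5′ end, and the targeted messages are silenced. Members of the miR-30 family share their seed and are therefore predicted to act on overlapping sets of targets. The family is expressed in many tissues and is known for roles in epithelial differentiation, in the epithelial to mesenchymal transition and in autophagy. Extracellular miRNAs are carried in vesicles or bound to proteins and lipoproteins. Serum holds miRNAs that blood cells and many organs release, and feces hold miRNAs from shed gut cells as well as from food.

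The sequences show how close the members are, which matters for reading their separate probes. The RefSeq table used here (GRCm38.p6) matched 3 of the 5 members and 6 of 8 other arms and seed relatives. Seeds are in capitals.
miR-30a-5p: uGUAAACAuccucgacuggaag
miR-30c-5p: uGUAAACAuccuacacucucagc
miR-30e-5p: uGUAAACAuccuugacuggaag
miR-30a-3p: cUUUCAGUcggauguuugcagc
miR-30e-3p: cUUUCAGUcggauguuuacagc
The 3 members printed share the seed GUAAACA. Of 1679 mature names in the table, 4 held it, these 3 and miR-384-5p. Counting from 1 at the 5′ end, miR-30a-5p and miR-30e-5p differed by 1 substitution, C13U, over 22 bases. miR-30a-5p and miR-30c-5p matched at 17 of 22 bases, and their substitutions, C13A, G14C, G18C, G19U and A20C, all lay outside the seed. The 3p arms of the miR-30a and miR-30e hairpins, which come from the other strand, also differed by 1 base, G18A. How much signal a probe takes from a member with so similar a sequence is not known from the files. In the RefSeq annotation the nearest miRNA gene to Mir30a was Mir30c-2 and the nearest to Mir30b was Mir30d, and each lay outside other annotated genes. Mir30c-1 and Mir30e both lay within Nfyc, which encodes a subunit of the transcription factor NF-Y. A mature miR-30c-5p can come from either Mir30c gene, and the array does not tell these apart.

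Arrays detected 285 to 389 miRNAs in intestine, 131 to 219 in serum and 378 to 675 in feces, where the 0 Gy replicate 3 had the most. Per the file headers each sample type lay on a slide of its own, and on every slide the doses lay in different columns. Sample type thus cannot be told apart from slide, nor dose from column. Each slide row held both doses. Of the 9 epithelial marker miRNAs, all were detected on every intestine array, 8 on every array of each feces group and 1 on every serum array. Of the leukocyte, erythrocyte, and endothelial and platelet lists, intestine showed at least 1 member on every array, whereas the liver marker miR-122-5p was detected nowhere. None of 3 exocrine pancreas markers was detected in intestine or serum, and in feces only miR-217-5p was, on 4 of 8 arrays, all at 0 Gy. All 4 smooth muscle markers were detected on every intestine array. In serum miR-145a-5p was detected on 6 of 6 arrays, miR-133a-3p on 5 and the others on none. In feces only miR-133a-3p was, on 8 of 8 arrays.

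The members that were detected differed between the sample types. In intestine all 5 members were detected on 8 of 8 arrays. In serum miR-30a-5p and miR-30d-5p were detected on 6 of 6 arrays, miR-30e-5p on 4 of 6, and miR-30b-5p and miR-30c-5p on 0 of 6. In feces miR-30d-5p was detected on 8 of 8 arrays, miR-30a-5p and miR-30e-5p on 7 of 8, and miR-30b-5p and miR-30c-5p on 5 of 8. Detection here means that, for 1 or more probes of the miRNA, at least 50% of spots carried the scanner software's call of well above background. In tissue, fewer cells of a kind and less RNA per cell cannot be told apart.

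**Figure D1:**
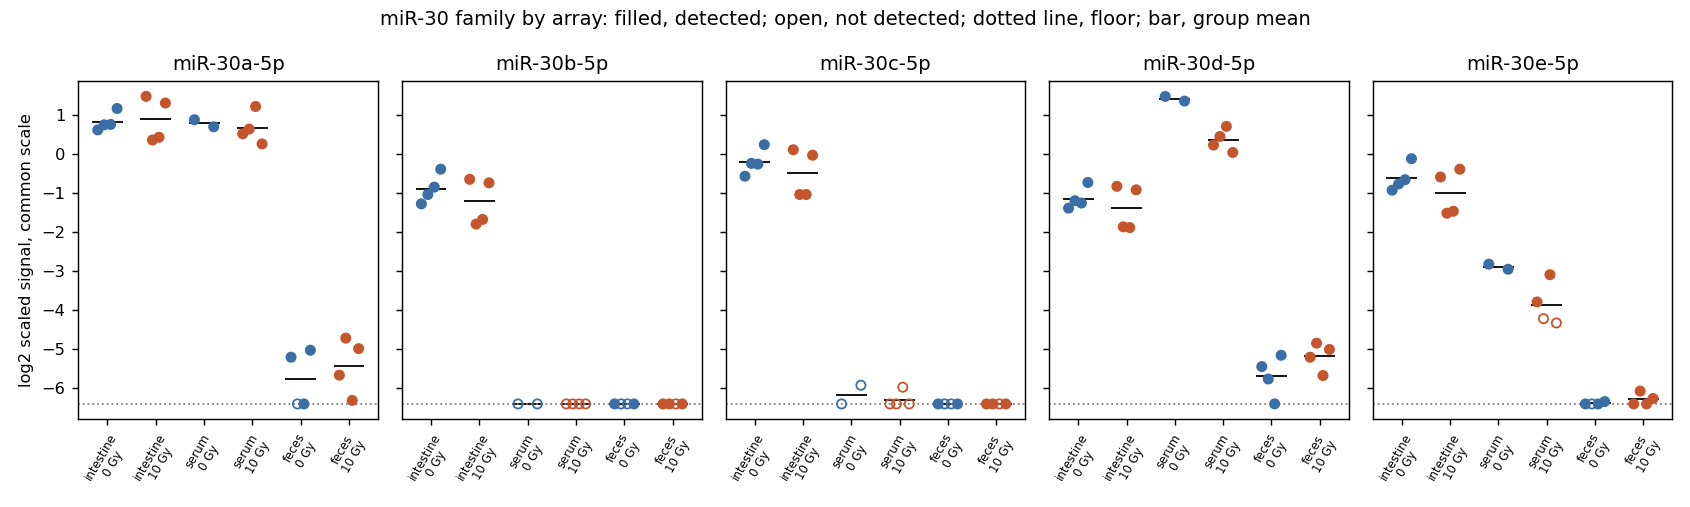
Each panel shows 1 member and each point 1 array, as log2 signal scaled by the 75th percentile of 81 miRNAs detected on all 22 arrays. Filled points were detected, bars are group means, and the dotted line is the floor at -6.41. The 0 Gy serum arrays of miR-30d-5p lie above every intestine array, while serum miR-30b-5p lies at the floor throughout.

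The order of the sample types differed among the members. miR-30d-5p was highest in serum. On the common log2 scale it read -1.38, -1.19, -1.25 and -0.72 on the 0 Gy intestine arrays, 1.49 and 1.37 on the 0 Gy serum arrays, and between -6.41 and -5.16 on the 0 Gy feces arrays. No group overlapped another, as was true of serum and intestine for 51.9 percent of the 749 miRNAs tested at 0 Gy and 52.2 percent at 10 Gy. Serum exceeded intestine by 2.57 ± 0.36 log2 units at 0 Gy (SE, limma adjusted p = 6.5e-06) and by 1.73 ± 0.29 at 10 Gy (limma adjusted p = 4.8e-05). Without scaling, the second of these fell to 0.32 (adjusted p = 0.76). miR-30d-5p was the only one of the 5 members above intestine among the 4 that passed at either dose, where at 0 and 10 Gy 17 and 21.8 percent of all miRNAs passed as higher and 46.5 and 57.1 percent in either direction.

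No difference between intestine and serum was found for miR-30a-5p. Its mean common log2 signal was 0.83 ± 0.24 (SD, n = 4) in intestine and 0.80 ± 0.12 (n = 2) in serum at 0 Gy, and 0.90 ± 0.58 and 0.67 ± 0.40 (n = 4 each) at 10 Gy. The groups overlapped at both doses. The difference, serum minus intestine, was -0.03 with a 95% interval from -1.03 to 0.97 at 0 Gy, and -0.24 with an interval from -1.05 to 0.58 at 10 Gy. Its direction depended on the scaling, since quantile normalization gave 1.67 and 1.65 (limma adjusted p = 0.0064 and 0.0014), and scaling by a percentile of every miRNA on the array gave 0.75 and 0.76 without passing. Without scaling the 10 Gy difference was -1.65 and passed (limma adjusted p = 0.022).

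The other 3 members were lower in serum than in intestine. miR-30e-5p, whose sequence differs from miR-30a-5p at 1 base, was lower by a log2 difference of -2.27 ± 0.33 at 0 Gy (limma adjusted p = 1.2e-05) and -2.88 ± 0.27 at 10 Gy (limma adjusted p = 4.3e-08). At 0 Gy its call was lost under quantile normalization, with -0.61 and an adjusted p of 0.26. miR-30b-5p and miR-30c-5p were not well above background on any serum array, so only bounds can be given. Over their 2 probes, miR-30b-5p was at least 3.22-fold and miR-30c-5p at least 7.85-fold higher in intestine at 0 Gy. At 10 Gy the bounds were at least 1.65-fold and at least 3.64-fold. Each bound is the lower of 2 probes, the mean of the bright group against, per dim array, the higher of the probe's own signal and the lowest detected signal. In the fit all 3 members passed as lower at both doses, beside 29.5 and 35.4 percent of miRNAs lower at 0 and 10 Gy.

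All 5 members were lower in feces than in intestine at both doses, and no arrays of the 2 sample types overlapped, as for 56.2 percent of all miRNAs at 0 Gy and 55 percent at 10 Gy. Of all miRNAs tested, 35.2 percent were lower at 0 Gy and 36.2 percent at 10 Gy. miR-30a-5p differed by -6.33 ± 0.39 at 10 Gy (limma adjusted p = 9.1e-11). At 0 Gy it differed by -6.60 ± 0.39, with 2 of 4 feces arrays set to the floor, so that this value depends on the floor. miR-30d-5p, with 1 of 4 feces arrays at the floor at 0 Gy and 0 of 4 at 10 Gy, differed by -4.56 ± 0.29 and -3.82 ± 0.29 (limma adjusted p = 1.4e-10 and 1.9e-09). All 8 feces arrays of miR-30b-5p and of miR-30c-5p lay at the floor of this scale, so their fitted differences depend on where the floor was set and are not given. The size of the miR-30a-5p difference at 0 Gy ranged from -7.06 to -3.42 over the processing alternatives, all with the same sign. That of miR-30d-5p ranged from -4.63 to -1.27 at 0 Gy and from -3.84 to -1.55 at 10 Gy. Against serum, miR-30a-5p, miR-30d-5p and miR-30e-5p were lower in feces at both doses, among 18.7 percent of miRNAs lower at 0 Gy and 21.6 percent at 10 Gy. miR-30d-5p differed from serum by -7.13 ± 0.36 at 0 Gy and -5.56 ± 0.29 at 10 Gy. Over the processing alternatives these sizes ranged from -7.20 to -3.75 and from -5.97 to -2.23. For miR-30e-5p 3 of 4 feces arrays at 0 Gy and 2 of 4 at 10 Gy were at the floor, so the size is not given. Its call as lower was lost without scaling at both doses, where the limma values were -1.02 (adjusted p = 0.20) at 0 Gy and, with the sign turned, 0.41 (adjusted p = 0.63) at 10 Gy.

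The balance between members was next read from the ratio of their signals on the same array, which does not change with the scaling between arrays. Because the 2 signals come from different probes, only changes of a ratio between arrays are read. The miR-30d-5p over miR-30a-5p ratio was 0.248, 0.259, 0.247 and 0.268 on the 0 Gy intestine arrays and 1.52 and 1.58 on the 0 Gy serum arrays. At 10 Gy it was 0.203, 0.213, 0.201 and 0.213 in intestine and 0.815, 0.879, 0.706 and 0.855 in serum. Serum thus lay above intestine on every array at each dose, by 2.60 log2 units at 0 Gy (exact permutation test, two-sided, p = 0.0667, which is the least that 2 and 4 arrays allow) and 1.97 at 10 Gy (exact permutation p = 0.0286, the least that 4 and 4 arrays allow). Such separation was common, since the ratios of 82.9 percent of all pairs of miRNAs detected on the arrays compared did not overlap at 0 Gy and of 69 percent at 10 Gy. After Benjamini-Hochberg adjustment over 12 comparisons of 2 ratios between sample types these became 0.0889 and 0.0686, and none of the 12 fell below 0.05. The miR-30e-5p over miR-30a-5p ratio moved the other way, with log2 means of -1.44 ± 0.12 (SD, n = 4) in intestine and -3.68 ± 0.03 (n = 2) in serum at 0 Gy.

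**Figure D2:**
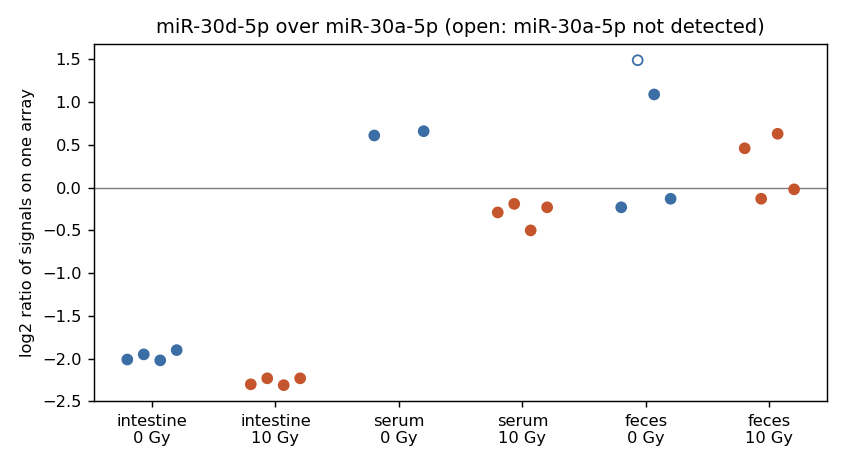
Points give the log2 ratio of miR-30d-5p over miR-30a-5p signal on each array by sample type and dose. Intestine arrays lie between -2.31 and -1.90, serum arrays at 0.61 and 0.66 for 0 Gy and between -0.50 and -0.19 for 10 Gy, and feces arrays with both detected between -0.23 and 1.09.

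In intestine 0 of the 5 members passed between the doses (limma, also 0 at an unadjusted p under 0.05), in a tissue where 41.8 percent of 335 miRNAs tested passed. miR-30a-5p had a scaled signal of 2.07, 1.97, 1.92 and 2.17 at 0 Gy and 2.76, 2.15, 1.87 and 2.53 at 10 Gy. miR-30e-5p read 0.707, 0.688, 0.717 and 0.887 at 0 Gy and 0.661, 0.584, 0.502 and 0.776 at 10 Gy. For both the doses overlapped, with the 10 Gy replicates 2 and 3 lowest in their group. The other 3 members showed the same low pair after scaling. miR-30b-5p read 0.554, 0.572, 0.628 and 0.734 at 0 Gy and 0.632, 0.482, 0.434 and 0.61 at 10 Gy. For miR-30c-5p the scaled signals were 0.905, 0.995, 0.945 and 1.14 at 0 Gy and 1.07, 0.817, 0.674 and 1 at 10 Gy. For miR-30d-5p they were 0.513, 0.51, 0.473 and 0.581 at 0 Gy and 0.56, 0.458, 0.376 and 0.539 at 10 Gy. Values of these 3 members also overlapped between the doses. The low pair depended on the scaling value, which was 660 and 880 on replicates 2 and 3 and 553 and 664 on replicates 1 and 4. Before scaling, miR-30a-5p read 1530, 1420, 1640 and 1680 at 10 Gy, where replicate 3 was not low. For miR-30c-5p, at 594, 539, 593 and 664 before scaling, the pair was lowest only in that replicate 3 nearly equalled replicate 1. Replicate 3 was not low before scaling for miR-30b-5p (349, 318, 382 and 405) or miR-30d-5p (310, 302, 331 and 358). The same held for miR-30e-5p (366, 385, 442 and 515). The log2 changes, 10 Gy minus 0 Gy, were 0.18 ± 0.17 for miR-30a-5p, -0.21 ± 0.19 for miR-30b-5p, -0.18 ± 0.19 for miR-30c-5p, -0.12 ± 0.18 for miR-30d-5p and -0.26 ± 0.18 for miR-30e-5p (SE, n = 4 per dose, limma adjusted p from 0.28 to 0.63). The 95% intervals reached from -0.66, the lowest bound, for miR-30e-5p to 0.56, the highest, for miR-30a-5p. Overlap of the doses for all 5 members compares with 39.4 percent of tested miRNAs whose doses did not overlap.

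The sign of these intestinal changes was not fixed by the data. Before scaling, the 75th percentile used for scaling lay between 439 and 538 at 0 Gy and between 553 and 880 at 10 Gy. Over the 335 miRNAs tested the median change was 0.16 as reported and 0.01 after quantile normalization. It was -0.35 when the percentile was taken over every miRNA on the array and 0.62 with unscaled signals. With unscaled signals the 4 members with negative values turned positive, from 0.20 to 0.35, and miR-30a-5p passed at 0.65 (limma adjusted p = 0.0022), as did miR-30d-5p at 0.35 (0.047). With array weights miR-30a-5p passed at 0.35 (0.025). With the percentile over every miRNA, miR-30a-5p turned to -0.33 and miR-30e-5p passed at -0.78 (0.046). Of all miRNAs tested, 59.4 percent passed without scaling, 54.6 percent with array weights and 31.9 percent with this percentile. Relative to the median of the tested miRNAs, miR-30a-5p lay at 0.02 as reported, 0.12 after quantile normalization, 0.02 with the percentile over every miRNA and 0.03 unscaled. In the same order miR-30e-5p lay at -0.42, -0.23, -0.42 and -0.42. The summed signal of the 9 epithelial markers lay between 6.27 and 7.21 at 0 Gy and between 5.20 and 6.55 at 10 Gy on the common log2 scale, ranges that overlap, and their part in the values of the family was not tested.

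**Figure D3:**
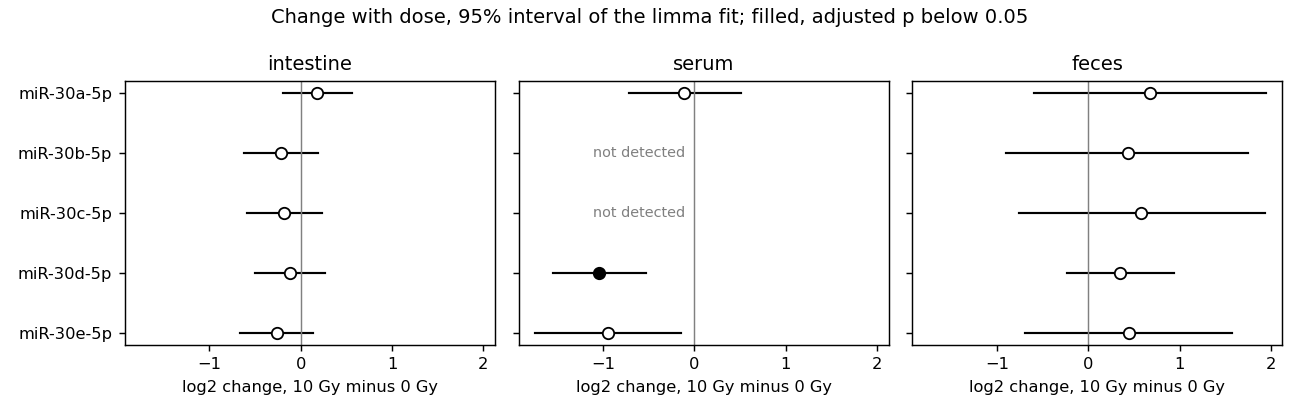
Points give the log2 change from 0 to 10 Gy in each sample type with the 95% interval of the limma fit, and filled points passed. Serum miR-30d-5p at -1.04 is the single filled point. The intestinal intervals all include 0, and the signs depend on scaling: unscaled, miR-30b-5p to miR-30e-5p turn positive in intestine and 3 members negative in feces, the percentile over every miRNA turns intestinal miR-30a-5p negative, and quantile normalization turns serum miR-30a-5p positive.

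Within intestine arrays, the signal of miR-30a-5p relative to each of the other 4 members was higher on every irradiated array than on any unirradiated one, but ratios separated the doses about as often among all miRNAs. The ratio to miR-30d-5p, given above array by array in its inverse form, had a log2 value between 1.90 and 2.02 at 0 Gy and between 2.23 and 2.31 at 10 Gy. The mean ratio to miR-30b-5p went from 1.71 ± 0.16 to 2.11 ± 0.04, that to miR-30c-5p from 1.03 ± 0.11 to 1.39 ± 0.06, and that to miR-30e-5p from 1.44 ± 0.12 to 1.89 ± 0.15 (log2, mean ± SD, n = 4 each). None of these 4 ratios, out of 10 among the members, overlapped between doses, beside 38.7 percent of the 35778 pairs of miRNAs detected on every intestine array. A share of 4 in 10 is near that background, and the separation is no result about the family. For these 4 ratios the differences between the dose means were 0.40, 0.36, 0.30 and 0.44 for miR-30b-5p to miR-30e-5p. Each had an exact two-sided permutation p of 0.0286, the smallest that 4 against 4 arrays allow, and an adjusted p of 0.0786 over the 11 ratios tested, so none passed the correction. The 6 ratios among the other 4 members overlapped, with differences from -0.10 to 0.14. All 4 ratios share the miR-30a-5p signal, so they are not separate observations. Since these ratios did not overlap between doses, the difference within each slide row had to be positive, and the rows are no further support. It was 0.30 and 0.49 against miR-30b-5p and 0.44 and 0.45 against miR-30e-5p. The 3 probes of miR-30a-5p changed by 0.05, 0.17 and 0.23, and the 2 of miR-30e-5p by -0.29 and -0.25.

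**Figure D4:**
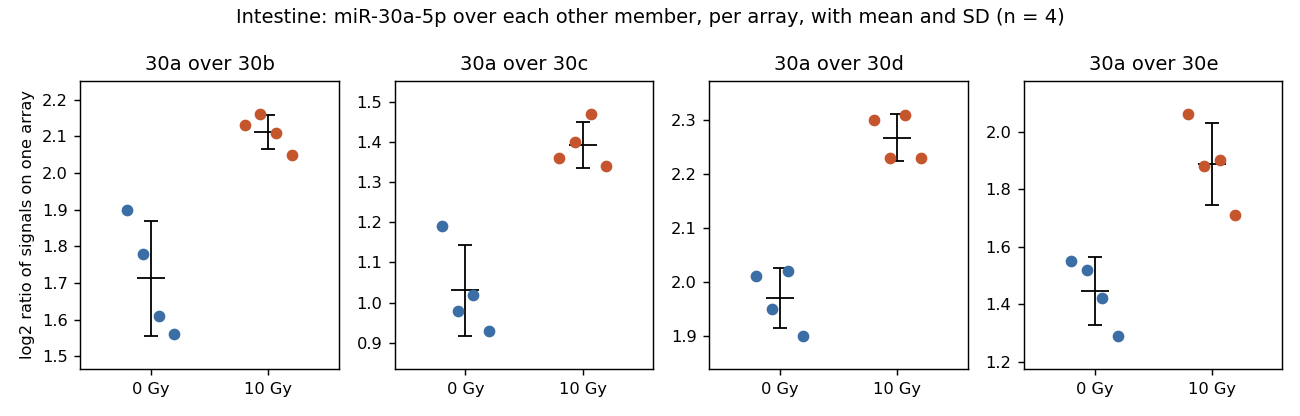
Each panel gives the log2 ratio of miR-30a-5p over another member on the 8 intestine arrays, with mean and SD (n = 4 per dose) and its own axis range. Every 10 Gy point lies above every 0 Gy point, by 0.30 on average against miR-30d-5p and by 0.44 against miR-30e-5p.

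In serum, miR-30d-5p passed as lower after irradiation, 1 of the 3 members tested, while miR-30e-5p had a change of about the same size that did not pass. The scaled signal of miR-30d-5p was 4.20 and 4.19 at 0 Gy and 1.89, 2.15, 2.46 and 1.74 at 10 Gy, so that all irradiated arrays lay below both unirradiated ones, and 30.1 percent of the 193 miRNAs tested in serum likewise did not overlap. The log2 change was -1.04 ± 0.22 (95% interval from -1.55 to -0.53, limma adjusted p = 0.044), a 2.06-fold decrease. Of all miRNAs tested in serum, 3.63 percent passed as lower and 4.66 percent in either direction. The 2 probes of miR-30d-5p fell by 1.07 and 1.01. Within slide rows 1 and 2 the change was -1.06 and -1.02, each from 1 array at 0 Gy and 2 at 10 Gy. Both had to be negative, since the doses did not overlap.

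The call on miR-30d-5p was close to its threshold. The change stayed negative under all 14 processing alternatives, from -1.82 to -0.80, but passed in 8. Not all of these could move it. The authors' series values repeated the scanner signal within 1 percent, and no serum array of miR-30d-5p lay at the floor that another setting lowered. With quantile normalization it was -0.80 (limma adjusted p = 0.15), without scaling -1.82 (0.21), and with the slide row as a block -1.04 (0.087). With the replicate block, where 0 of 193 miRNAs passed, it was -1.06 (limma adjusted p = 0.19), and in 1 fit of all groups -1.07 (0.18). When single arrays were left out, it lay between -1.13 and -0.95 and passed only without 10 Gy replicate 3 (adjusted p from 0.034 to 0.37).

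**Figure D5:**
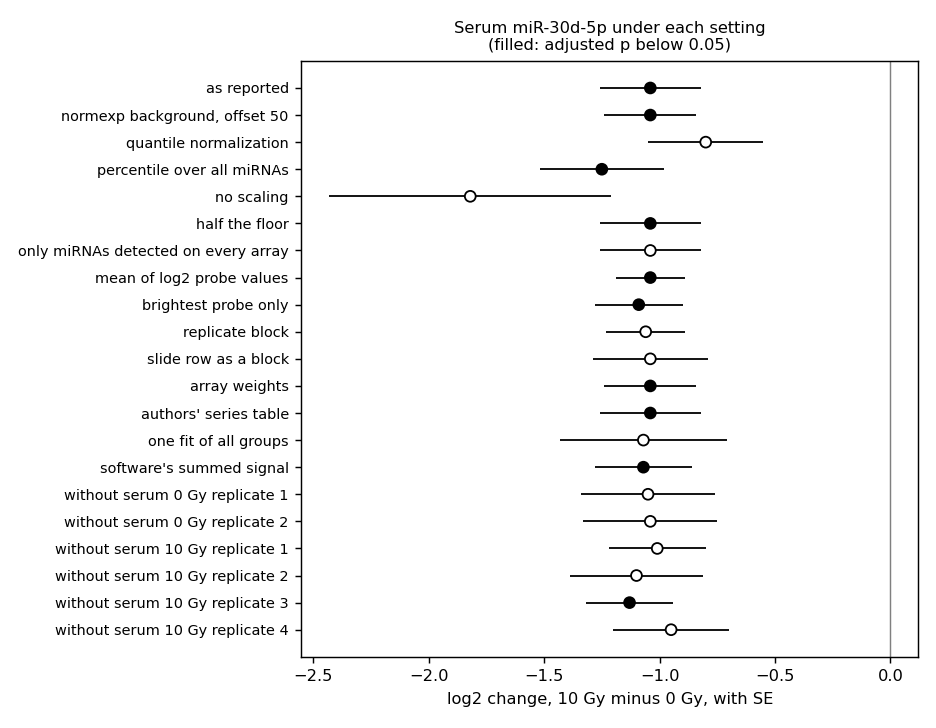
Points give the log2 change of serum miR-30d-5p with its SE under each processing setting, and filled points had an adjusted p below 0.05. All points lie below 0, between -1.82 and -0.80, and both filled and open points occur.

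For miR-30a-5p and miR-30e-5p, which differ at 1 base, neither change in serum passed. miR-30a-5p had a scaled signal of 2.76 and 2.66 at 0 Gy and 2.31, 2.45, 3.48 and 2.03 at 10 Gy, and the doses overlapped. Its log2 change was -0.11 ± 0.26 (95% interval from -0.72 to 0.51, limma adjusted p = 0.84), and quantile normalization gave 0.18. Its 3 probes disagreed, with changes of -0.57, -0.12 and 0.15. miR-30e-5p read 0.211 and 0.21 at 0 Gy and 0.116, 0.0838, 0.174 and 0.0839 at 10 Gy, where replicates 2 and 4 were not detected. Those doses did not overlap either. The change of -0.95 ± 0.34 did not pass (95% interval from -1.74 to -0.15, limma adjusted p = 0.19). It passed without 10 Gy replicate 3, at -1.17 (adjusted p = 0.040), and was 0.06 with normexp background correction. The ratio of miR-30a-5p over miR-30d-5p, which is free of scaling, was 0.93 log2 units higher at 10 Gy in serum, going from -0.63 ± 0.04 (SD, n = 2) to 0.30 ± 0.14 (n = 4). Its doses did not overlap, as for 29.7 percent of all pairs of miRNAs detected on every serum array (exact permutation p = 0.0667, the smallest possible, adjusted 0.147).

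Blood cell markers moved in the same serum arrays. The summed signal of the 3 erythrocyte miRNAs lay between 3.56 and 3.67 at 0 Gy and between 1.76 and 2.37 at 10 Gy on the common log2 scale. Of these 3, miR-486a-5p was detected on 6 of 6 serum arrays, miR-451a on 3 and miR-144-3p on 0. No leukocyte marker out of 5 was detected on every serum array of either dose. Of the 9 epithelial markers, 8 were detected on no serum array and miR-375-3p, which is also an enteroendocrine and islet miRNA, on 6 of 6. Their summed signal lay between -3.28 and -2.73 at 0 Gy and between -1.20 and 0.44 at 10 Gy, and miR-375-3p was higher at 10 Gy by 2.61 ± 0.47 (SE, limma adjusted p = 0.028). The part of these markers' sources in the miR-30d-5p result was not tested.

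In feces 0 of the 5 members passed (limma, also 0 at an unadjusted p under 0.05), where 7.54 percent of 491 miRNAs tested did. The doses overlapped for all 5, while 29.1 percent of the miRNAs tested did not overlap. miR-30d-5p, the member detected on every feces array, had a scaled signal of 0.102, 0.0851, 0.0642 and 0.115 at 0 Gy and 0.121, 0.129, 0.089 and 0.124 at 10 Gy. The highest 0 Gy array lay above the lowest 10 Gy array. Its log2 change was 0.35 ± 0.26 (95% interval from -0.23 to 0.94, limma adjusted p = 0.36), and without scaling -0.29. miR-30a-5p read 0.12, 0.0304, 0.0302 and 0.126 at 0 Gy and 0.0879, 0.142, 0.0573 and 0.125 at 10 Gy, where replicate 2 at 0 Gy was not detected. miR-30e-5p read 0.049, 0.0129, 0.0194 and 0.0506 at 0 Gy and 0.0318, 0.0551, 0.0232 and 0.0518 at 10 Gy, again with replicate 2 at 0 Gy not detected. Both were low on the 0 Gy replicates 2 and 3. miR-30b-5p and miR-30c-5p were not detected on those 2 arrays, nor on the 10 Gy replicate 3, and elsewhere read from 0.0166 to 0.0334 and from 0.0265 to 0.044. Changes of the 5 members were 0.67 ± 0.56, 0.43 ± 0.59, 0.58 ± 0.60, 0.35 ± 0.26 and 0.44 ± 0.50 for miR-30a-5p to miR-30e-5p, with adjusted p from 0.36 to 0.61. The 0 Gy replicate 3 stood apart, with a scaling value of 2630 where the other feces arrays had 529 to 1670. Without it the changes were 0.33, 0.07, 0.09, 0.19 and 0.26, again with none passing.

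The dose effects were also compared between sample types. No member passed in any of these 3 comparisons, beside 10.9 percent of miRNAs for feces minus intestine, 7.74 percent for serum minus intestine and 5.07 percent for feces minus serum. For miR-30b-5p every serum and feces array lay at the floor of the common scale. Its feces minus serum value was therefore fixed at 0, and its other values only repeat its intestinal change with the sign turned. miR-30c-5p lay at the floor on all 8 feces arrays and was detected on 0 of 6 serum arrays. For both, these comparisons could not show a dose effect in serum or feces. The dose effect on miR-30d-5p in feces minus that in serum was 1.57 ± 0.46 (95% interval from 0.60 to 2.54, limma adjusted p = 0.059). It passed under quantile normalization at 0.98 (adjusted p = 0.042), with the percentile over every miRNA at 1.57 (0.0052) and among miRNAs detected on every array at 1.57 (0.028). For serum minus intestine the miR-30d-5p difference was -0.84 ± 0.46 (limma adjusted p = 0.36). It passed with normexp at -0.64 (adjusted p = 0.044), a setting under which 79.3 percent of all miRNAs passed, and without scaling at -2.16 (adjusted p = 0.028), where 12.4 percent did. As reported, the change in serum was not shown to be particular to serum.

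Of the 8 other arms and seed relatives, 3 were tested in intestine, and 1 of them, miR-30e-3p, passed as lower, where 15.8 percent of miRNAs did. Its scaled signal was 0.0727, 0.0887, 0.076 and 0.109 at 0 Gy and 0.0682, 0.0512, 0.0421 and 0.0624 at 10 Gy, and the doses did not overlap, as for 39.4 percent of the intestinal miRNAs tested. The log2 change was -0.64 ± 0.20 (95% interval from -1.08 to -0.19, limma adjusted p = 0.025). It was -0.44 and -0.83 within the slide rows, where both had to be negative because the doses did not overlap. The change was -0.17 without scaling (limma adjusted p = 0.41) and -0.37 as a mean of log2 probe values (0.069). Of 8 omissions of single arrays 4 ended the call, with adjusted p from 0.021 to 0.073 over all 8. Only 1 of its 2 probes was detected on every intestine array. miR-30a-3p, from the same hairpin as miR-30a-5p, changed by 0.11 ± 0.19 and miR-30c-1-3p by -0.47 ± 0.30, and neither passed (limma adjusted p = 0.65 and 0.22).

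The 3p arms also differed in where they were detected. miR-30a-3p and miR-30e-3p were detected on 8 of 8 intestine arrays and on no array of serum or feces. Against feces at 0 Gy, they were at least 20.7-fold and at least 26.7-fold higher in intestine, and at 10 Gy at least 7.42-fold and at least 9.42-fold. These bounds hold on the common scale only and depend on it. Its divisor at 0 Gy was 494 to 606 on intestine arrays and 2450 to 17600 on feces arrays. At 10 Gy it was 546 to 1210 and 2480 to 3810. Against serum at 0 Gy the bounds were at least 2.14-fold and at least 2.76-fold, and at 10 Gy miR-30e-3p had a bound of at least 1.03-fold and miR-30a-3p none above 1. miR-30c-2-3p was detected on 8 of 8 feces arrays and 2 of 8 intestine arrays, and miR-30c-1-3p on 8 of 8 and 6 of 8. Detection on more feces arrays did not mean a higher scaled signal there. In the fit 3 of 4 relatives tested passed as lower in feces than in intestine at each dose, beside 35.2 percent of all miRNAs at 0 Gy and 36.2 percent at 10 Gy. miR-30a-3p and miR-30e-3p passed at both doses. miR-30c-1-3p passed at 0 Gy (limma adjusted p = 0.0022) and miR-30c-2-3p at 10 Gy (limma adjusted p = 0.012), where its groups overlapped. For these last 2, 3 of 4 and 4 of 4 feces arrays lay at the floor, so no size is given. Before scaling their order was reversed. The mean signal of miR-30c-1-3p at 0 Gy was 62.3 in feces and 14.6 in intestine. For miR-30c-2-3p at 10 Gy it was 19.3 in feces and 12.8 in intestine. The direction of both calls thus depends on the scaling. In feces miR-30c-2-3p had a signal before scaling from 13.8 to 148 at 0 Gy and from 15.3 to 22.3 at 10 Gy, and 1 of its 2 probes was detected on every feces array. After scaling its dose change was -0.48 ± 0.29 and that of miR-30c-1-3p was 0.22 ± 0.31, neither of which passed (limma adjusted p = 0.24 and 0.63). miR-30b-3p was detected on 1 feces array, and miR-30d-3p, miR-30f and miR-384-5p on none of the 22.

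Across all 22 arrays the members fell into different patterns. miR-30b-5p and miR-30c-5p correlated at 0.999, miR-30a-5p and miR-30d-5p at 0.940, and miR-30b-5p and miR-30d-5p at 0.297 (Pearson, common log2 scale). These values rest mostly on the 3 sample types, each of which lay on a slide of its own, and on values at the floor. Within the 8 intestine arrays the 10 pairs of members correlated between 0.304 and 0.966. Among 258 miRNAs detected on at least 11 arrays, those most like miR-30a-5p were miR-22-3p (0.987), miR-342-3p (0.987) and miR-212-3p (0.980). Those most like miR-30d-5p were miR-423-5p (0.985), miR-484 (0.977) and miR-709 (0.972). miR-30b-5p and miR-30c-5p were both most like miR-652-3p and miR-26b-5p, at 0.999 or above, followed by miR-181a-5p (0.999) and miR-3968 (0.998) respectively. miR-30e-5p was most like the smooth muscle miRNA miR-145a-5p (0.987), then miR-92a-3p (0.981) and miR-29a-3p (0.978). Under quantile normalization miR-212-3p, miR-709 and miR-181a-5p were no longer among the 3 most alike of their members, while the other named miRNAs were.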

How the data were processed

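The deposited intensity values are scanner output that the authors obtained with Agilent Feature Extraction 11.5, per the submitters' processing notes. Per the file headers the processed signal is linear, background-subtracted and not normalized between arrays, and deposited flags, scored 0 or 1, mark outlying spots and spots well above background. Here, spots that were not outlying were averaged for each probe, and probe means were added up for each miRNA (3 probes for miR-30a-5p, 2 for the other members). Scaling used each array's 75th percentile of the miRNAs that all arrays of the fit detected (268 in intestine, 121 in serum, 326 in feces, 81 over all). Low values were set to a floor, the typical lowest detected value, before log2.

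Doses were compared within each sample type, and sample types and dose effects in 1 fit of 6 groups, with limma 3.58.1 in R 4.3.3. Benjamini-Hochberg adjustment (threshold 0.05) covered every miRNA tested. A miRNA was tested if the number of arrays detecting it reached the size of the smaller group. Within-array ratios had exact permutation tests. The scripts were tested on simulated data. The number of arrays limits the precision. Members, relatives, marker lists and the naming rule (these lists, and the 3 miRNAs most like each member) were chosen with earlier results of these data known. The software's summed signal, the ratios between sample types and the share of all miRNA pairs whose ratios separated were added after seeing the data. The array design names mm9, so no coordinates are given.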

Additional observations from a re-analysis of the deposited data

Results flagged for a closer look

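miR-30e-5p on the 0 Gy intestine array of replicate 4 lay far from the other 3 arrays of its group, at a log2 scaled signal of -0.17 against -0.54 to -0.48. It was 1 of 23 combinations of a member and a group of 4 arrays examined, and chance flags about 1 in 20. Without that array the intestinal change of miR-30e-5p did not pass either.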

How the results depend on the processing

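Counts of members that passed, or of ratios that separated the doses, stayed within 1.5 times their reported value in 339 combinations of result and setting and did not in 33. In serum the count of 1 became 0 with quantile normalization, no scaling or the slide row as a block, where 4.66, 1.55 and 3.63 percent of all miRNAs passed. It also became 0 in 1 fit of all groups and with only miRNAs detected on every array, beside 3.2 and 1.65 percent. The count ranged from 0 to 2 when single 10 Gy arrays were left out, where between 1.55 and 8.79 percent of all miRNAs passed. With the replicate block it was also 0, as miR-30d-5p had a limma adjusted p of 0.19, and there 0 of all 193 miRNAs tested passed. Same-numbered samples correlated between -0.565 and 0.44, values too few and too mixed to show whether the numbers pair them. In intestine the count of 0 became 1 with array weights, 1 with the percentile over every miRNA and 2 without scaling, where 54.6, 31.9 and 59.4 percent of all miRNAs passed. Between sample types 1 member was left for each comparison when only miRNAs detected on every array were kept, since only miR-30d-5p was then tested. Feces against serum gave 4 members at 0 Gy with quantile normalization, 4 with the percentile over every miRNA, and 5 at 10 Gy with normexp, beside 53.9, 51.9 and 94.5 percent of all miRNAs. For the dose effect in serum minus that in intestine, 3 of 5 members passed with normexp, where 79.3 percent of all miRNAs did, and 1, miR-30d-5p, without scaling, where 12.4 percent did. For feces minus intestine, 2 passed with the percentile over every miRNA, beside 22.6 percent of all. For feces minus serum, 1 passed with quantile normalization, the percentile over every miRNA or only miRNAs detected on every array (8.14, 7.21 and 9.88 percent of all), and 0 to 1 when single arrays were left out.

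Some log2 values changed sign. Within intestine, no scaling gave 0.25, 0.29, 0.35 and 0.20 for miR-30b-5p, miR-30c-5p, miR-30d-5p and miR-30e-5p, array weights gave 0.02 for miR-30c-5p and 0.08 for miR-30d-5p, and the percentile over every miRNA gave -0.33 for miR-30a-5p. miR-30a-3p turned to -0.22 with normexp, -0.12 with quantile normalization and -0.40 with the percentile over every miRNA. Within serum, miR-30a-5p turned to 0.18 with quantile normalization, 0.08 with its brightest probe and 0.01 without 10 Gy replicate 4, and miR-30e-5p to 0.06 with normexp. Within feces, no scaling gave -0.14, -0.29 and -0.26 for miR-30b-5p, miR-30d-5p and miR-30e-5p. miR-30a-5p in serum against intestine at 0 Gy turned to 1.67 (quantile normalization), 0.75 (percentile over every miRNA), 0.16 (mean of log2 probe values) and 0.01, 0.08 and 0.05 (without feces 0 Gy replicate 2, intestine 0 Gy replicate 4 or serum 0 Gy replicate 2). At 10 Gy it turned to 1.65 with quantile normalization and 0.76 with the percentile over every miRNA. In feces against serum, no scaling gave 1.23 at 0 Gy and 1.27 at 10 Gy for miR-30c-5p and 0.41 at 10 Gy for miR-30e-5p, and miR-30c-5p was 0.04 at 10 Gy without serum 10 Gy replicate 3.

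Of the dose effects compared, feces minus intestine without scaling was -0.62, -0.43, -0.25, -0.64 and -0.50 for miR-30a-5p to miR-30e-5p. For miR-30a-5p it was also -0.07 with normexp, -0.02 without feces 0 Gy replicate 2 and -0.03 without feces 10 Gy replicate 2, in a range up to 0.60 over the arrays left out. For serum minus intestine, miR-30c-5p turned to -0.46 with quantile normalization, -0.29 without scaling, -0.14 at 0.5 of the floor, -0.16 with its brightest probe, and -0.12 and -0.14 without intestine 0 Gy replicate 4 or serum 10 Gy replicate 3, in a range up to 0.32 over the arrays left out. There miR-30a-5p turned to 0.20 with its brightest probe and 0.01 with the percentile over every miRNA, miR-30b-5p to -0.25 without scaling, and miR-30e-5p to 0.54 with normexp. For feces minus serum, normexp gave -0.47 for miR-30c-5p and -0.20 for miR-30e-5p. The cause of these changes was not tested.

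Testing every miRNA without a filter was not run, because between 1029 and 1534 of the 1881 had no spread within groups. Serum at 0 Gy has 2 arrays, and leaving out 1 assumes that the other varies like the rest. Signals near background limit miR-30b-5p and miR-30c-5p in serum and feces.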
